A study of Mus musculus with 10 samples.

Results

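The genes described here are 36 genes that mark B cells and plasma cells, chosen by name from their known roles, with earlier results of these data known. They were followed in spleen cells that had been selected for CD4, the coreceptor of helper T cells. A probe set with 1 gene symbol was found for 35 of them, out of 19938 genes measured. Lyn, a kinase of the B cell antigen receptor, was not among these probe sets and is not analysed here. By role, the 35 comprised 14 genes of the receptor complex, coreceptors and surface molecules, 7 signalling kinases and adaptors, 9 transcription factors and 5 plasma cell and secretory genes.

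The study measured RNA on Affymetrix mouse gene arrays, 1 per sample and 10 in all, from female mice aged 8 weeks of the strains B10 (genotype given as B10Br) and NOD (given as NODk, a strain used to study autoimmune diabetes). In both strains 3 arrays came from unstimulated cells (T0) and 2 from cells given PMA at 10 ng/ml and ionomycin at 1 uM for 4 hours (T1), drugs that activate protein kinase C and raise cell calcium. For both strains the stimulated samples here are replicates 2 and 3, and replicate 1 at T1 is not used here. The labels call T0 the basal state, while the protocol can be read as 4 hours of culture without the drugs, so how T0 cells were handled is not certain. Replicates are labelled biological, without saying whether each came from 1 animal or a pool.

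B cells sense antigen through a surface immunoglobulin that signals by way of the CD79A and CD79B chains. The kinases LYN, BLK, SYK and BTK and the adaptor BLNK carry that signal inward, while CR2 strengthens it and CD22, CD72 and SIGLECG restrain it. PAX5 and EBF1 hold B cell identity, and plasma cells, the antibody-secreting descendants of B cells, need XBP1 to expand their secretory machinery. Several of these genes are also used by other cells: Syk, Btk, Irf8, Ly86 and Mef2c by myeloid cells, Spib and Bcl11a by plasmacytoid dendritic cells, Cd24a by red cell precursors, and Irf8 and Pou2af1 by activated T cells.

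All values are log2 intensities, so 1 unit is a 2-fold difference, and a level of one gene cannot be set against that of another. T cell markers were present on every array: Cd4 measured 10.89 to 11.21 at T0 and 9.06 to 9.75 at T1, and Cd3g 11.76 to 11.86 and 9.64 to 10.34. Array medians lay between 6.18 and 6.23. Differences were tested with limma over all 19938 genes, and a gene passed when its Benjamini-Hochberg adjusted p was under 0.05. No detection call was used, so a low value may be background, and a fold change that ends near it is understated. Since these are bulk samples, fewer cells of a type and less RNA per cell cannot be told apart.

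Promoter stretches are shown for the 2 genes called by limma for a strain difference in response (Cd79a and Cr2), calls that depended on single arrays. They are also shown for the gene that rose most (Irf8), and for 2 that fell and hold a B cell motif (Blnk and Cd22). They are the 250 bases before the RefSeq start site, 5′ to 3′ on the gene's strand, in assembly GRCm38.p6, with motif matches in capitals.
Cd79a (chr7:24897247-24897496, plus strand): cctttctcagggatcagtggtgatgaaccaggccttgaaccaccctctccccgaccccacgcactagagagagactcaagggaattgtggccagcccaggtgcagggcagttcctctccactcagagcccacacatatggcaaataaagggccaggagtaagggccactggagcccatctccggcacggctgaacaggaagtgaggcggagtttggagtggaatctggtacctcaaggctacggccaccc
Cr2 (chr1:195176720-195176969, minus strand): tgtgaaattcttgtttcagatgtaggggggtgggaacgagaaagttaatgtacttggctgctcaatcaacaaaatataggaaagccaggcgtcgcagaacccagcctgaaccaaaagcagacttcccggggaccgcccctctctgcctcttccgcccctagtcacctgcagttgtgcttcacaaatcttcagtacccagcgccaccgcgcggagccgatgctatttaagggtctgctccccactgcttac
Irf8 (chr8:120736108-120736357, plus strand): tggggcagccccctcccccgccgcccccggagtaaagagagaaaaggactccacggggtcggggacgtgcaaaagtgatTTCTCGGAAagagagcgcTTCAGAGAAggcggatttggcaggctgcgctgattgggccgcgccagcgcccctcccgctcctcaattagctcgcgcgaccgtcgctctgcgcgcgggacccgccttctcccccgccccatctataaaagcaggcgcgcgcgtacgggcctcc
Blnk (chr19:40994222-40994471, minus strand): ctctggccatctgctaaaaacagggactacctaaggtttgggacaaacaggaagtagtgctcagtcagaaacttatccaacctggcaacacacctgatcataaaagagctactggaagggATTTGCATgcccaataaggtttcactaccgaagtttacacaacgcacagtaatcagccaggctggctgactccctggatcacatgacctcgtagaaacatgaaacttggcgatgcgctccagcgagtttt
Cd22 (chr7:30879029-30879278, minus strand): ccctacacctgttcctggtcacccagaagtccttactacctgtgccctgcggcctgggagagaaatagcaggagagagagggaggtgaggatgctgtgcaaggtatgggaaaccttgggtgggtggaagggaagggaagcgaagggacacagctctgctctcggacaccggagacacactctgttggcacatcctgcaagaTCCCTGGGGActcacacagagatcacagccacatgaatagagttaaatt
In Blnk the capitals mark an octamer, the site of POU2F2 and its coactivator POU2AF1, in Cd22 an EBF1 palindrome, and in Irf8 a pair of GAS elements, the sites of STAT factors. Irf8 had 2 such stretches, and the one with the most motif matches was picked. None of the motifs searched lay in the Cd79a and Cr2 stretches, which says only that these letters are not there.

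Motifs were searched on both strands in windows from 250 bases before to 50 after the start, of which 40 belonged to 30 of the 36 genes and 32851 to all genes. The octamer ATGCAAAT lay in 2 of the 40 (5.0%, Blnk and Vpreb3) and in 1.74% of all windows. The EBF1 palindrome lay in 1 (2.5%, Cd22) against 0.904%, and the ETS core GAGGAAGT, bound by SPIB, in 2 (5.0%, Cd72 and Fcrl1) against 3.2%. The AP-1 site TGANTCA lay in 4 (10.0%) against 7.81%, and the GAS element TTCNNNGAA in 3 (7.5%) against 8.3%. The CRE TGACGTCA and the NF-kB pattern searched, which is not a palindrome, lay in none of the 40, and in 1.79% and 0.411% of all windows. Other forms of the NF-kB site were not searched. These motifs do not contain one another, and a match describes letters, not binding.

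Most of the B cell genes were lower in stimulated than in unstimulated cells, and a few were higher. In B10, 27 of the 35 passed (77.1%, against 31.8% of all genes tested), 21 of them lower (60.0%, against 18.1%) and 6 higher (17.1%, against 13.7%). In NOD, 26 passed (74.3%, against 35.5%), 22 lower (62.9%, against 19.5%) and 4 higher (11.4%, against 16.1%). The median difference of the 35 genes was -0.55 in B10 and -0.81 in NOD, where all genes had medians of 0.03 and 0.08. Both strains shared 19 genes that fell and 4 that rose, 7 passed in 1 strain and 5 in neither, and none had opposite calls. Across the 35 genes the responses of the 2 strains, which share no array, had a Pearson's r of 0.955, given as a description because the genes were measured on the same arrays.

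**Figure D1:**
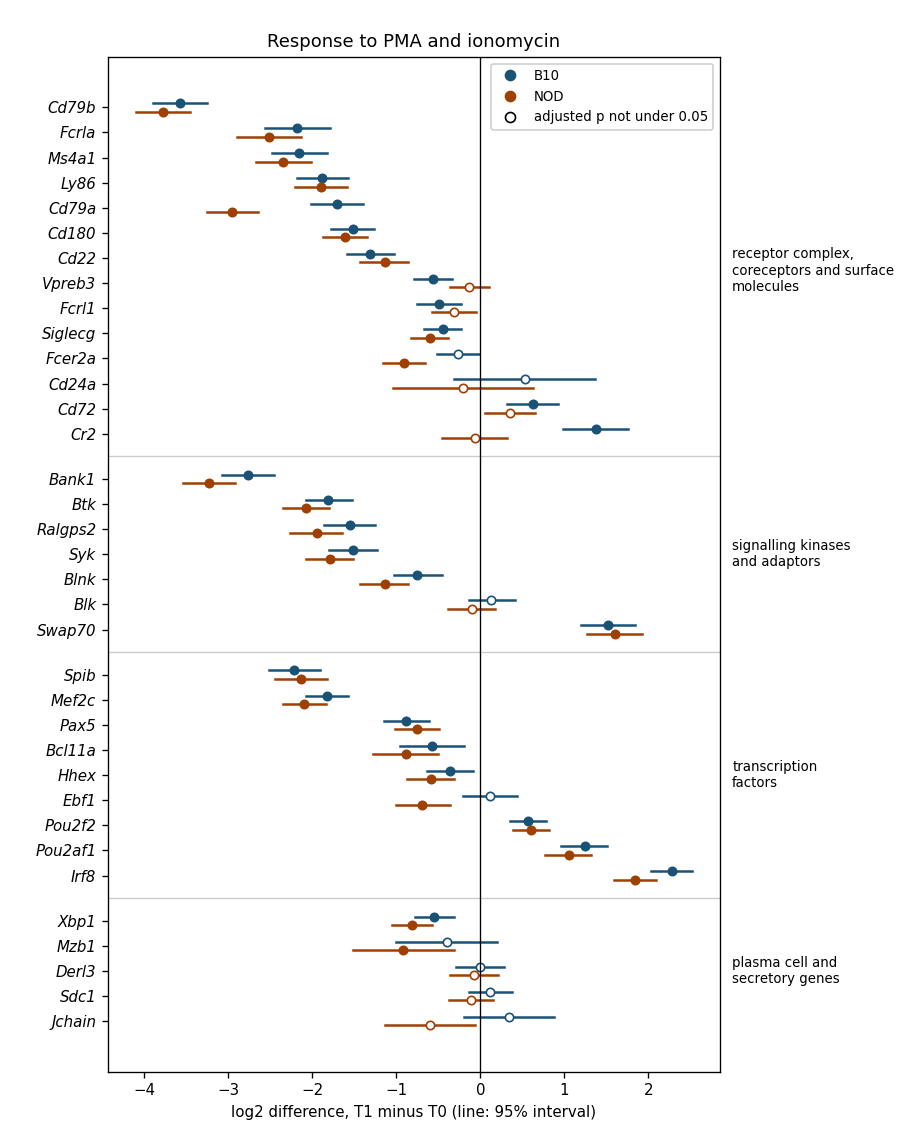
Response of the 35 B cell and plasma cell genes to PMA and ionomycin, as the log2 difference T1 minus T0 on the horizontal axis, in B10 (blue) and NOD (brown), grouped by role; lines are 95% intervals from limma, filled points have an adjusted p under 0.05 and open points do not. Cd79b lies lowest in both strains (-3.57 and -3.78) and Irf8 highest (2.28 and 1.84), while Cr2 lies at 1.37 in B10 and -0.07 in NOD.

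Markers of some other cell types moved with stimulation as well. Of 8 measured T cell markers 5 fell in B10 (62.5%, against 18.1% of all genes), and in NOD 4 fell (50.0%, against 19.5%) and 1 rose (12.5%, against 16.1%). Their summed linear intensity was 12900 to 13100 at T0 and 7420 to 7650 at T1 in B10, and 11700 to 12700 and 6020 to 7320 in NOD. Brighter probe sets weigh more in such sums, which are not amounts of a cell type. The monocyte and macrophage list, 9 genes, had 8 lower in each strain (88.9%), with sums of 2430 to 3260 and 1100 to 1120, and of 3930 to 4960 and 1180 to 1510. Of 5 markers of plasmacytoid dendritic cells 3 fell in each strain (60.0%), with sums of 1380 to 1390 and 846 to 925 in B10 and of 1310 to 1490 and 743 to 798 in NOD. Siglech, a defining receptor of these cells, fell in B10 (-2.40) and NOD (-2.29). Of 7 dendritic cell markers 4 fell in B10 and 5 in NOD, where 1 rose, and of 8 neutrophil markers 4 and 6. Of 2 CD8 T cell markers 2 fell in B10 and 1 in NOD. Of 5 NK cell markers 1 fell in each strain (20.0%, near the 18.1% and 19.5% of all genes). The lowest response on that list was -1.43 in B10 and -0.36 in NOD. Of 4 platelet markers 1 fell in each strain (25.0%, also near those shares). For the 4 erythroid markers limma made no call in either strain, with 0 at an unadjusted p under 0.05. The part of each cell type in the responses below was not tested.

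The antigen receptor chains fell in both strains. Cd79b, which carries the receptor's signal into the cell, measured 9.84, 9.80 and 9.67 on the B10 T0 arrays and 6.05 and 6.34 at T1. On the NOD arrays it measured 9.84, 9.67 and 9.97 at T0 and 5.80 and 6.29 at T1. Both T1 arrays of each strain thus lay more than 3 log2 units below every T0 array of that strain, and the strains overlapped in both states. In B10 this was an 11.9-fold fall (-3.57 ± 0.15, limma's standard error, adjusted p = 5.32e-09), and for NOD it was 13.7-fold (-3.78 ± 0.15, adjusted p = 3.92e-09).

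Its partner Cd79a fell less in B10 than in NOD. It measured 8.99, 9.22 and 8.91 at T0 and 7.51 and 7.16 at T1 in B10, a 3.26-fold fall (-1.71 ± 0.14, adjusted p = 8.06e-07). NOD arrays measured 9.27, 9.35 and 9.43 at T0 and 6.56 and 6.23 at T1, a 7.74-fold fall (-2.95 ± 0.14, adjusted p = 1.09e-08). Every NOD array lay above every B10 array at T0 and below every one at T1.

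With limma the difference of the Cd79a responses passed (NOD minus B10 -1.25 ± 0.20, 95% interval -1.67 to -0.82, adjusted p = 0.0241), as did the strain difference at T1 (-0.93 ± 0.15, adjusted p = 0.00587), while that at T0 did not (0.31 ± 0.12, adjusted p = 0.225). The call on the responses ended without B10 T0 replicate 1 or 3, B10 T1 replicate 2, any NOD T0 array or NOD T1 replicate 3 (-1.42 to -1.07 over single omissions), and also with all arrays shifted to one 75th percentile or every probe set tested. The T1 call ended without B10 T1 replicate 2 or NOD T1 replicate 3 (-1.11 to -0.76 over single omissions), with only the T1 arrays in the fit, and with an erythroid covariate described further on (-0.59).

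Cr2, the complement receptor that lowers the threshold of B cell activation, rose in B10. It measured 7.65, 7.61 and 7.10 at T0 and 8.79 and 8.86 at T1, so both T1 arrays lay above all T0 arrays, and the rise was 2.59-fold (1.37 ± 0.18, adjusted p = 4.97e-05). In NOD it measured 8.54, 8.13 and 8.68 at T0 and 8.47 and 8.29 at T1, where the states overlapped (-0.07 ± 0.18, 95% interval -0.46 to 0.32, adjusted p = 0.793). Every unstimulated NOD array lay above every unstimulated B10 array, by 1.00 ± 0.16 on average (adjusted p = 0.00333). The difference of the responses was -1.44 ± 0.25 (95% interval -1.99 to -0.89, adjusted p = 0.0466). That call ended on omission of any 1 array other than NOD T0 replicate 2 (-1.60 to -1.26 over single omissions), and under the same shift, with every probe set tested, with array weights and without both B10 arrays of replicate 3.

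**Figure D2:**
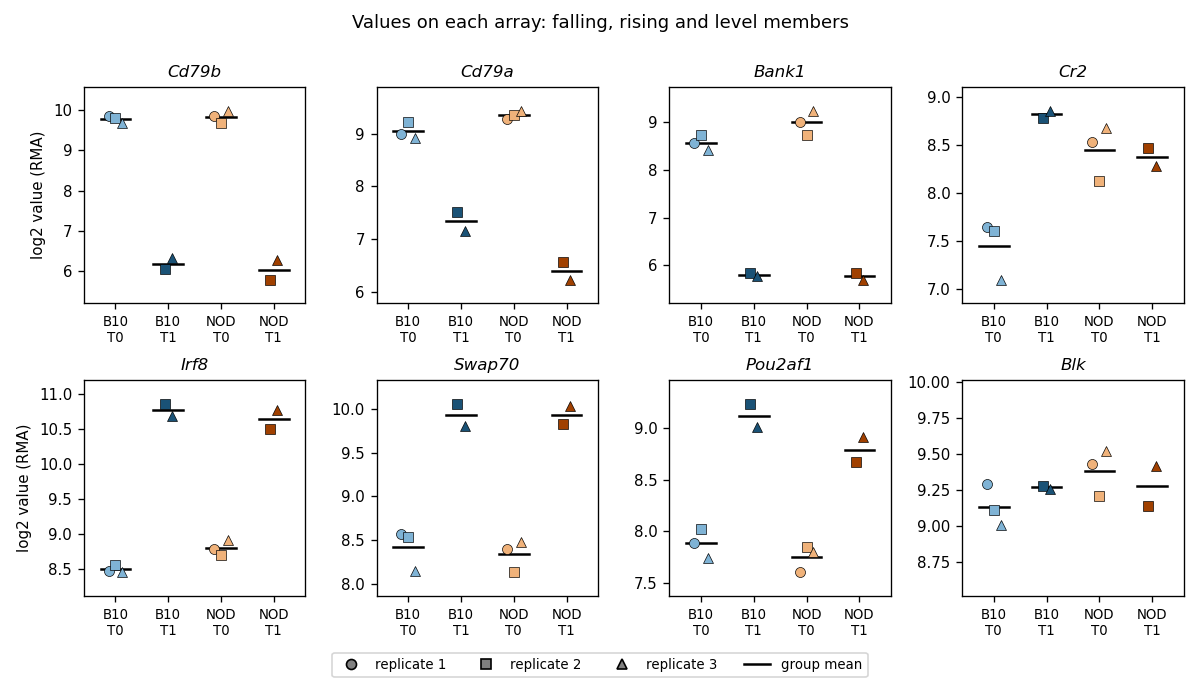
Log2 value (vertical axis, RMA scale, each panel with its own range) of 8 of the genes on each of the 10 arrays, by strain and state, with replicate numbers as shapes and group means as lines. Cd79b, Cd79a and Bank1 lie lower at T1 than at T0 in both strains, Irf8, Swap70 and Pou2af1 lie higher, Cr2 is higher at T1 in B10 while its NOD states overlap, and the Blk states overlap in each strain.

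Among the other 11 surface genes, 8 fell in B10 and 7 in NOD. Of all 14 surface genes 71.4% fell in B10 and 64.3% in NOD, against 18.1% and 19.5% of all genes. The shares higher were 14.3% in B10 (13.7% of all genes) and 0.0% in NOD (16.1%). Ms4a1, which encodes CD20, measured 9.37, 9.61 and 9.10 at T0 and 7.28 and 7.13 at T1 in B10. In NOD it measured 9.49, 9.39 and 9.76 and then 7.26 and 7.15. Its T1 arrays overlapped between strains, after falls of 4.46-fold (-2.16 ± 0.15, adjusted p = 2e-07) and 5.09-fold (-2.35 ± 0.15, adjusted p = 1.04e-07). Fcrla, an intracellular Fc receptor-like protein, fell in B10 (-2.18) and NOD (-2.51). Ly86, which pairs with Cd180 in a surface complex related to the endotoxin receptor, fell in B10 (-1.88) and NOD (-1.90). So did Cd180, with responses of -1.52 and -1.61. Among inhibitory receptors, Cd22 fell in B10 (-1.31) and NOD (-1.14), and Siglecg did as well (-0.45 and -0.60).

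A few surface genes passed in 1 strain. Cd72, another inhibitory receptor, rose in B10 (0.62 ± 0.14, adjusted p = 0.00309) and had a value of 0.35 in NOD (adjusted p = 0.0626); its B10 call ended without both B10 arrays of replicate 3. Vpreb3, a protein of B cell receptor assembly, fell in B10 (-0.56) and had a value of -0.13 in NOD. Fcrl1, an Fc receptor-like coreceptor, fell in B10 (-0.49), a call that ended without B10 T1 replicate 2, and had a value of -0.31 in NOD. Fcer2a, the low-affinity IgE receptor CD23, fell in NOD (-0.91 ± 0.12, adjusted p = 3.77e-05) while its B10 response of -0.27 did not pass (adjusted p = 0.104). For these 4 genes the difference between the strains' responses did not pass with limma (adjusted p = 0.707, 0.398, 0.786 and 0.187).

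Of the 7 signalling genes 5 fell in each strain (71.4%, against 18.1% and 19.5% of all genes) and 1 rose (14.3%, near the 13.7% and 16.1% of all genes). Bank1, a scaffold of receptor-driven calcium signalling, measured 8.57, 8.74 and 8.41 at T0 and 5.83 and 5.78 at T1 in B10. On NOD arrays the values were 9.01, 8.74 and 9.24, then 5.84 and 5.70. The stimulated arrays of both strains lay together, at 5.70 to 5.84, far below the unstimulated ones. The fall was 6.83-fold in the B10 arrays (-2.77 ± 0.14, adjusted p = 1.89e-08), and in the NOD arrays 9.38-fold (-3.23 ± 0.14, adjusted p = 7.07e-09).

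The kinases Btk and Syk fell together. The fall of Btk was 3.5-fold for B10 (-1.81 ± 0.13) and 4.21-fold for NOD (-2.07 ± 0.13), from 7.29 to 7.69 over all T0 arrays to 5.36 to 5.66 over all T1 arrays. Syk fell 2.85-fold (-1.51 ± 0.13) and 3.47-fold (-1.79 ± 0.13). Ralgps2, an exchange factor for Ral GTPases, fell in B10 (-1.55) and NOD (-1.95), as did the adaptor Blnk (-0.75 and -1.14). Blk, a Src family kinase of B cells, did not pass. It measured 9.01 to 9.29 at T0 and 9.26 to 9.28 at T1 in B10, and 9.21 to 9.52 and 9.14 to 9.42 in NOD, so its states overlapped. The 95% intervals of its response were -0.14 to 0.41 and -0.38 to 0.17, narrower than a 2-fold change either way.

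Swap70, which links phosphoinositide signals to the actin skeleton in B cells, rose instead. It measured 8.57, 8.53 and 8.15 at T0 and 10.06 and 9.81 at T1 in B10, and 8.40, 8.13 and 8.48 and then 9.83 and 10.03 in NOD. No T0 array overlapped a T1 array in either strain. The rises were 2.87-fold (1.52 ± 0.15, adjusted p = 3.91e-06) and 3.03-fold (1.60 ± 0.15, adjusted p = 2.5e-06).

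Transcription factors moved both ways, with 5 of 9 lower and 3 higher in B10 and 6 lower and 3 higher in NOD. The shares lower were 55.6% and 66.7%, against 18.1% and 19.5% of all genes, and the share higher was 33.3% in each, against 13.7% and 16.1%. Irf8, an interferon regulatory factor of B and myeloid cells, measured 8.47, 8.56 and 8.45 at T0 and 10.86 and 10.68 at T1 in B10. In NOD it measured 8.78, 8.70 and 8.91 at T0 and 10.50 and 10.77 at T1. Stimulated arrays lay above unstimulated ones in both strains, by 4.85-fold (2.28 ± 0.11, adjusted p = 1.58e-08) and 3.58-fold (1.84 ± 0.11, adjusted p = 8.04e-08).

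The octamer factors rose. Pou2af1, the coactivator that B cells need to form germinal centres, had a 2.36-fold rise in B10 (1.24 ± 0.13, adjusted p = 5.94e-06), and one of 2.06-fold in NOD (1.05 ± 0.13, adjusted p = 2.71e-05). Its partner Pou2f2, the lymphoid octamer factor, rose by 0.57 ± 0.10 and 0.60 ± 0.10, from 6.78 to 6.93 over all T0 arrays to 7.25 to 7.49 over all T1 arrays.

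Spib and Mef2c had the lowest responses among the factors. Spib, an ETS factor of B cells and plasmacytoid dendritic cells, measured 8.12, 8.36 and 7.96 and then 5.80 and 6.07 in B10, and 8.31, 8.07 and 8.41 and then 6.21 and 6.05 in NOD. Its falls were 4.65-fold (-2.22 ± 0.14) and 4.39-fold (-2.13 ± 0.14). Mef2c, a factor of B cell survival and proliferation, fell in B10 (-1.83) and NOD (-2.10).

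The identity factor Pax5 measured 7.78 to 8.10 and then 7.07 and 7.07 in B10, and 7.82 to 8.14 and then 7.27 and 7.25 in NOD (-0.88 ± 0.12 and -0.76 ± 0.12, both passing). Ebf1 measured 7.96, 8.08 and 7.82 at T0 and 8.15 and 7.99 at T1 in B10, where the states overlapped (0.12 ± 0.15, adjusted p = 0.646). In NOD it fell from 8.32, 7.92 and 8.35 to 7.34 and 7.69 (-0.69 ± 0.15, adjusted p = 0.00275). The difference between these Ebf1 responses was -0.80 ± 0.21 and did not pass (adjusted p = 0.202).

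Bcl11a, a factor of early B cell development, fell in B10 (-0.58) and NOD (-0.89). Hhex, another such factor, also fell (-0.36 and -0.59). The B10 call of Bcl11a ended without B10 T0 replicate 1 or 3 or either B10 T1 array (-0.60 to -0.55 over single omissions), and without both B10 arrays of replicate 3. That of Hhex ended without B10 T0 replicate 1 or 2, B10 T1 replicate 3 or any NOD T0 array (-0.56 to -0.16), with replicate or strain and replicate as a fixed block (adjusted p = 0.0922 and 0.0706 in limma), with only the B10 arrays in the fit and without both B10 arrays of replicate 3. Both B10 calls also ended under the 75th percentile shift and with every probe set tested.

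Of the 5 plasma cell genes 1 fell in B10 (20.0%, near the 18.1% of all genes) and 2 in NOD (40.0%, against 19.5%), and limma called none higher in either strain, nor was any higher at an unadjusted p under 0.05. Xbp1, the factor that drives the secretory programme, went from 9.52 to 9.67 at T0 to 8.91 to 9.21 at T1 in B10 (-0.55 ± 0.11, adjusted p = 0.00151). In NOD it went from 9.67 to 9.73 to 8.81 to 8.96 (-0.81 ± 0.11, adjusted p = 6.26e-05), and in neither strain did the states overlap. Mzb1, a chaperone of antibody assembly, fell in NOD (-0.92 ± 0.28, adjusted p = 0.0199) and had a value of -0.40 in B10. The NOD call ended without either NOD T1 array or without NOD T0 replicate 3 (-1.03 to -0.76 over single omissions), with every probe set tested and with trend and robust eBayes. Sdc1, the plasma cell surface proteoglycan CD138, measured 6.42 to 6.79 over all 10 arrays, and Derl3, a factor of protein disposal, 6.23 to 6.70, with no call in any comparison. Whether these low values lie above background was not tested.

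Related genes outside the 36 also moved both ways. Of 12 measured further genes of B cells 6 were lower and 2 higher in B10, and 9 lower and 1 higher in NOD. The share lower was 50.0% in B10 and larger in NOD, above those of all genes (18.1% and 19.5%), and the shares higher were 16.7% and 8.33%, near or under them (13.7% and 16.1%). Fcmr, an IgM receptor, fell in B10 (-1.86) and NOD (-1.46), and so did Cxcr5, the follicle-homing receptor shared by B cells and follicular helper T cells (-0.62 and -1.49). Tnfrsf13b, the receptor TACI, rose by 1.01 and 0.95. Of 14 measured B cell receptor signalling genes, many of which T cells also use, 10 fell in B10 (71.4%) and 11 in NOD (78.6%), and 1 rose in each (7.14%, under the share of all genes). Inpp5d, the phosphatase SHIP, fell (-2.42 and -2.68), and Malt1, a protease of NF-kB signalling, rose by 1.48 and 1.77.

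Of 12 further plasma cell genes 5 rose and 2 fell in B10, and 3 rose and 3 fell in NOD. The shares higher were 41.7% (13.7% of all genes) and 25.0% (16.1%), and the shares lower, 16.7% and 25.0%, were near those of all genes (18.1% and 19.5%). Irf4, a factor that acts in both plasma cells and activated T cells, rose in B10 (2.57) and NOD (2.57), and so did Prdm1, which acts in both as well (1.07 and 0.83). Slamf7, a surface receptor of plasma cells and other activated lymphocytes, rose by 2.84 in each strain. Of 18 genes of the unfolded protein response 5 rose and 3 fell in B10, and 4 rose and 4 fell in NOD. These shares (27.8% and 22.2% higher, 16.7% and 22.2% lower) were near those of all genes, apart from the higher calls in B10 (13.7% of all genes). Ern1, the sensor that splices Xbp1 RNA, fell (-0.78 and -0.92), while Dnajb9, a target of XBP1, rose by 1.10 and 0.73.

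Between strains few of the 35 genes differed before stimulation. At T0, 5 were higher in NOD (14.3%, against 3.44% of all genes) and limma called none lower, although 2 were lower at an unadjusted p under 0.05 and 12 higher. At that unadjusted cutoff 1429 of the 19938 genes were lower and 1721 higher. Of all genes 2.35% were called lower, and 5.79% in either direction. The 5 were Cr2, Cd24a, Jchain, Mzb1 and Mef2c. In all, 29 of the 35 values lay above 0 (9032 of all 19938 genes), with a median of 0.18, where all genes had -0.01. This count is a description, because the genes were measured on the same arrays. Cd79b, Ms4a1, Pax5 and Cd22 differed by 0.05, 0.19, 0.07 and -0.05 with no call, and their T0 arrays overlapped between strains. Without passing, Bank1 (0.43), Ly86 (0.41), Fcrl1 (0.33), Cd79a (0.31), Fcer2a (0.31) and Irf8 (0.30) had every NOD T0 array above every B10 one. Siglecg (0.15) and Xbp1 (0.09) did as well. Vpreb3 (-0.30) and Ralgps2 (-0.17) had every NOD T0 array below every B10 one, also without passing. With 3 arrays per strain such a separation can occur without a strain difference. How many of all genes were separated in this way was not counted, so these lists are a description.

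**Figure D3:**
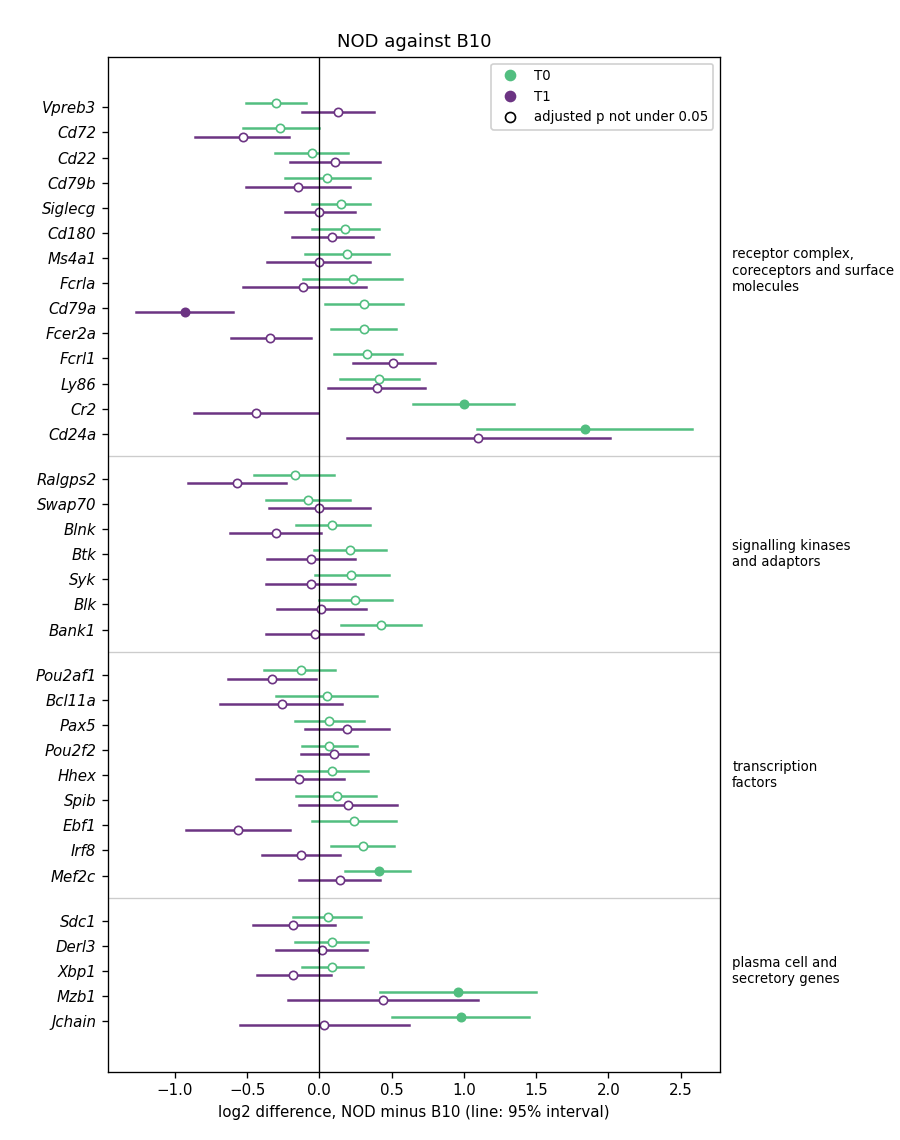
Strain difference of the 35 genes, as log2 NOD minus B10 on the horizontal axis, at T0 (green) and T1 (purple), grouped by role; lines are 95% intervals from limma, filled points have an adjusted p under 0.05 and open points do not. The filled green points are Cr2, Cd24a, Mef2c, Mzb1 and Jchain, and the filled purple point is Cd79a at -0.93.

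Jchain and Mzb1, the plasma cell genes among the 5, varied within strains as well as between them. Jchain, which joins IgM and IgA units, measured 9.29, 10.24 and 9.58 in B10 and 10.56, 10.59 and 10.89 in NOD at T0. Mzb1 measured 7.51, 8.04 and 7.25 in B10 and 8.45, 8.35 and 8.88 in NOD. Replicate 2 was the highest B10 array and replicate 3 the highest NOD array for both genes, yet each NOD array lay above each B10 array. NOD was higher by 0.98 ± 0.22 for Jchain (1.97-fold, adjusted p = 0.0194) and by 0.96 ± 0.25 for Mzb1 (1.94-fold, adjusted p = 0.0406). Ighm, the IgM heavy chain and not among the 36, measured 8.17, 8.55 and 8.03 in B10 and 8.75, 8.66 and 8.82 in NOD, with the same arrays highest, and its strain difference of 0.49 did not pass (adjusted p = 0.106).

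At T1 the strains overlapped for both plasma cell genes. Jchain measured 10.32 and 9.77 in B10 and 9.86 and 10.29 in NOD, and Mzb1 7.71 and 6.69 and then 7.55 and 7.73. The T0 call of Jchain ended without B10 T0 replicate 1 or 3 or NOD T0 replicate 1 or 3 (0.77 to 1.24 over single omissions). That of Mzb1 ended without B10 T0 replicate 1 or 3, any NOD T0 array or either NOD T1 array (0.78 to 1.18). Both calls also ended with every probe set tested and with trend and robust eBayes, and that of Mzb1 with all arrays shifted to one 75th percentile. Without both B10 arrays of replicate 3 the Jchain call ended too.

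Cd24a, a surface glycoprotein of B cells and of red cell precursors, had the largest T0 strain difference of the 35 genes. It measured 9.67, 9.31 and 10.85 in B10 and 11.85, 11.47 and 12.02 in NOD, a 3.58-fold difference (1.84 ± 0.34, adjusted p = 0.00739). At T1 it measured 9.96 and 10.98 in B10 and 11.35 and 11.80 in NOD (1.10 ± 0.42, adjusted p = 0.198). B10 replicate 3 was the highest B10 array in both states, and all NOD arrays were higher still. With trend and robust eBayes the T0 call ended (adjusted p = 0.094).

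Erythroid markers ranked the arrays of each group as Cd24a did. Alas2, the first enzyme of red cell heme synthesis, measured 8.62, 8.09 and 10.21 in B10 and 11.31, 11.21 and 11.54 in NOD at T0, and Car2, a carbonic anhydrase of red cells, 9.10, 7.73 and 10.56 and then 11.81, 11.34 and 12.07. Of 4 measured erythroid markers 4 were higher in NOD at T0 (against 3.44% of all genes) and 1 at T1 (against 1.77%). Their summed linear intensity was 623 to 3000 in B10 and 5390 to 7940 in NOD at T0, and 887 to 3220 and 6070 to 7600 at T1. With their mean on each array as a covariate, an alternative chosen after seeing the data, the T0 difference was 0.30 for Cd24a (adjusted p = 0.761), 1.20 for Cr2 (adjusted p = 0.0725), 0.20 for Mef2c and 1.46 for Jchain, none of which passed, and 1.78 for Mzb1, which did. Strain and erythroid signal move together on these arrays.

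**Figure D4:**
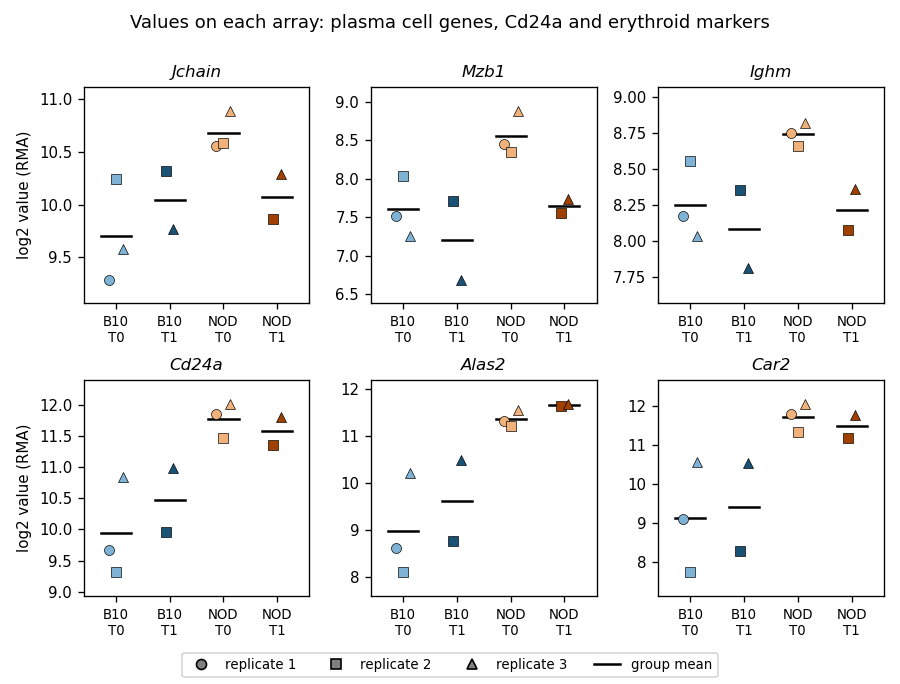
Log2 value (vertical axis, RMA scale, each panel with its own range) on each of the 10 arrays for Jchain, Mzb1, Ighm and Cd24a and for the erythroid markers Alas2 and Car2, by strain and state, with replicate numbers as shapes and group means as lines. B10 replicate 2 is the highest B10 array for Jchain, Mzb1 and Ighm in both states, while B10 replicate 3 is the highest for Cd24a, Alas2 and Car2.

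Myeloid markers also differed at T0. Of 9 monocyte and macrophage markers 6 were higher in NOD (66.7%, against 3.44% of all genes), and of 8 neutrophil markers 4 (50.0%), with sums for the latter of 654 to 978 in B10 and 1150 to 1520 in NOD. Their part in the T0 differences was not tested. Mef2c, which myeloid cells also use, measured 8.30, 8.10 and 8.19 in B10 and 8.50, 8.54 and 8.77 in NOD at T0 (0.41 ± 0.10, adjusted p = 0.0401), and omission of any 1 T0 array ended that call (0.32 to 0.46 over single omissions), as did the 75th percentile shift, every probe set tested and leaving out both B10 arrays of replicate 3.

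At T1, Cd79a was the 1 gene of the 35 that passed, lower in NOD (2.86%, where 1.83% of all genes were lower and 3.6% passed in either direction), so 1 call is near the background. The median strain difference of the 35 at T1 was -0.03, where all genes had 0.01. For the difference of responses, Cd79a and Cr2 passed (5.71%, against 0.246% of all genes), both with the lower value in NOD. In all, 28 of the 35 values lay below 0 (9450 of all 19938 genes), with a median of -0.27 where all genes had 0.01. This count is a description, because the genes were measured on the same arrays. Irf8 had -0.44 ± 0.16 and Bank1 -0.46 ± 0.20, and neither passed (adjusted p = 0.435 and 0.513).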

How the data were processed

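The deposited table holds log2 intensities that the authors made with RMA in Affymetrix Power Tools, per the submitters' processing notes; versions are not given in the sources used here. RMA corrects background, quantile-normalises and summarises probes, so a change shared by all genes is removed. Of 35486 probe sets 21789 had 1 gene symbol, 1621 several and 12076 none. The probe set with the highest mean stood for a gene, and each of the 35 genes had 1.

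Group means of all 10 arrays were fitted with limma 3.58.1 in R 4.3.3 (eBayes, two-sided tests, Benjamini-Hochberg over 19938 genes per comparison, threshold 0.05, 6 residual and 6.3 prior degrees of freedom). The number of arrays limits the precision. The p-values rest on the spread between arrays within groups, moderated over all genes, with arrays taken as independent. Whether that spread lies between animals or pools is not known. The fit was tested on simulated data for 19938 genes, where it recovered 63 of 67 2-fold changes for stimulation in B10, 57 of 67 in NOD, 65 of 67 between strains at T0, 56 of 67 at T1 and 38 of 67 for the difference of responses. Of 67 changes of 1.41-fold it recovered 14, 28, 30, 26 and 3 in the same order. Calls for stimulation numbered 148 in B10 and 155 in NOD there, against 6342 and 7085 in the measured data. Recovery with as many changes as in the measured data was not tested. Any of the 36 genes could be named, and up to 4 of each other list. The 36 genes and the other lists were chosen with earlier results of these data known. Alternatives covered scaling, probe set choice, dim genes, eBayes settings, array weights, replicate blocks, fewer arrays and 2 fits chosen after seeing the data.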

Additional observations from a re-analysis of the deposited data

Results flagged for a closer look

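The comparison of responses between strains picked out 2 genes, by limma's test of the difference itself. The response of Cd79a was -1.71 in B10 and -2.95 in NOD, a difference of -1.25 (adjusted p = 0.0241). That of Cr2 was 1.37 and -0.07, a difference of -1.44 (adjusted p = 0.0466). Groups of 2 and 3 arrays were too small to test for single outlying samples. Each array was left out in turn, and in a fit chosen after seeing the data both B10 arrays of replicate 3.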

How the results depend on the processing

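Of the calls, 23 of 27 for stimulation in B10 and 25 of 26 in NOD held in each of 22 alternatives; none of the 5 at T0, the 1 at T1 and the 2 on the difference of responses held in all of theirs, and no called gene changed sign. With 1 array left out, the 35 genes gave 25 to 27 calls in B10, 25 to 27 in NOD, 2 to 5 at T0, 0 to 3 at T1 and 0 to 1 for the difference of responses. At T0 the 5 became 3 with one 75th percentile for all arrays, 2 with every probe set tested, 3 with trend and robust eBayes, 12 with array weights, 1 with the erythroid covariate and 3 without both B10 arrays of replicate 3. At T1 the 1 became 3 among brighter genes, 4 with trend and robust eBayes, 2 with the fixed replicate block, 0 with only the T1 arrays (9 at an unadjusted p under 0.05 in limma), 0 with the erythroid covariate (6) and 2 without both B10 arrays of replicate 3. For the difference of responses the 2 became 0 with the 75th percentile (6 at an unadjusted p under 0.05 in limma), 0 with every probe set (7), 1 with array weights and 1 without both B10 arrays of replicate 3. In the main fit at T1, 1619 of all 19938 genes were higher in NOD at that unadjusted cutoff and 1645 lower. Of the 35 genes 3 were higher there and 7 lower. For the difference of responses 914 of all genes were higher and 927 lower. Such counts over all genes were not made for the alternative fits. The cause of the changed counts was not tested.

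Over all genes, the T0 count of 1155 became 2316 with array weights and 131 with the erythroid covariate, and 571 to 642 without 1 of 4 T0 arrays. The T1 count of 718 became 292 with weights, 128 with only the T1 arrays, 105 with the covariate, and 184 and 270 without B10 T1 replicate 2 or NOD T1 replicate 3. The difference of responses, 49, became 31 with the 75th percentile, 31 with weights, 102 with trend and robust eBayes, 90 with strain and replicate as a block, 82 with the covariate, and 13 to 32 without 1 of 8 arrays. The 75th percentile moved the NOD response's median over all genes from 0.081 to 0.207, and its split from 3201 higher and 3884 lower to 5393 and 3145. It gave 397 higher and 269 lower at T1 (353 and 365 before), and 16 and 15 for the difference of responses (19 and 30 before).

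The labels do not say that a replicate number marks shared animals. Deviations of same-numbered arrays correlated at 0.413 and 0.404 in B10 and at 0.219 and -0.0145 in NOD, so 3 of 4 pairs, both of B10 among them, correlated above 0.1 and 1 did not. The 2 values of a strain are not independent, because the deviations of its 2 T1 arrays from their mean mirror each other. Without a label for shared animals the numbers were not used as pairs. With the fixed replicate block the 35 genes gave 26, 28, 5, 2 and 2 calls in the order above, and with it as a random block 27, 27, 5, 1 and 2. Among called genes a fixed block ended the B10 call of Hhex.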
